A study of Mus musculus with 30 samples.

Results

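The 10 genes described here encode 9 chemokines (Ccl2, Ccl3, Ccl4, Ccl5, Ccl7, Cxcl1, Cxcl2, Cxcl10 and Cxcl14) and the inflammatory cytokine tumour necrosis factor (Tnf). They were taken by name from the 41388 genes of the deposited mouse count tables, and all 10 were found there. RNA-seq covered 20 libraries, each made from a pool of RNA of 3 to 4 mice. Plated hepatocytes came from mice aged 12 weeks and gave 3 pools labelled A1cf_Tg/+ (Tg) and 3 wild-type (WT) C57BL/6J pools. Whole livers came from mice aged 12 months and gave 4 pools labelled A1cf_Tg/+, 4 C57BL/6J pools, 3 A1cf_-/- (KO) pools and 3 C57BL/6NJ pools. Hepatocytes were released by collagenase perfusion and kept overnight on collagen-coated dishes before RNA was taken. A further 10 CLIP libraries hold RNA crosslinked to and precipitated with A1CF from hepatocytes labelled A1cf_Tg/+ (mice aged 12 weeks). A1CF is an RNA-binding protein known as a cofactor of Apob mRNA editing. The promoter and cell type that drive the transgene, the transgene's sequence and the sex of the mice are not given in the sources used here, nor is it said whether pools of 1 group share mice. The p-values therefore measure the spread between pools, which may be in part technical.

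Chemokines are small secreted proteins that bind G protein-coupled receptors on leukocytes and direct them along concentration gradients. CC chemokines act mainly on monocytes, macrophages and T cells, and the CXC chemokines Cxcl1 and Cxcl2 act on neutrophils through Cxcr2. Many of these genes are transcribed after activation of NF-kB, the transcription factor downstream of Tnf receptors and Toll-like receptors, and many of their mRNAs are short-lived because AU-rich elements in the 3' UTR recruit decay factors. In liver they are made by resident macrophages (Kupffer cells), endothelial and stellate cells and, under stress or cytokine stimulation, by hepatocytes themselves.

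Several members lie side by side in the GRCm38 genome. Ccl2 (chromosome 11, 82035571 to 82037453, + strand) stands next to Ccl7 (82045712 to 82047525, +). Ccl5 (83525778 to 83530518, - strand), Ccl3 (83647844 to 83649355, -) and Ccl4 (83662584 to 83664683, +) lie further along the same chromosome. Cxcl1 (chromosome 5, 90891241 to 90893115, +) and Cxcl2 (90903899 to 90905909, +) are neighbours, and Cxcl10 (92346638 to 92348889, -) is on the same chromosome. Cxcl14 lies on chromosome 13 (56288647 to 56296551, -) and Tnf on chromosome 17 (35199381 to 35202007, -). All 10 are protein-coding in GENCODE M21, and reads over their exons were counted. Ccl2 overlaps Gm17268 and Cxcl10 overlaps Art3, each on the opposite strand; the strand setting of the counting is not given, so reads of the overlapping partner cannot be told apart there. The longest identical run between 2 coding sequences of the members was 21 bases, between Cxcl1 and Cxcl2, and no other pair shared more than 13.

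The sequences below show the AU-rich stretch of the members richest in it; mRNA half-lives were not measured. Each is the 30-base stretch of the 3' UTR with the most copies of the pentamer ATTTA, written as DNA 5' to 3' on the gene's strand (GRCm38), with the pentamers in capitals. The 4 members with the most pentamers per kilobase in the 3' UTR and at least 2 in 1 window are shown.
Tnf, chr17:35199679-35199708, - strand: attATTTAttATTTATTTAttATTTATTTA
Cxcl2, chr5:90905327-90905356, + strand: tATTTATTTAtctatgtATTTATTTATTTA
Cxcl1, chr5:90892602-90892631, + strand: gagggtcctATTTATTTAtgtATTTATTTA
Ccl3, chr11:83648085-83648114, - strand: gactcttcacttgaaattttATTTAATTTA
The whole 3' UTRs held 11 pentamers in Cxcl2, 8 in Tnf, 7 in Cxcl1, 5 in Ccl3, 3 in Cxcl10, 2 each in Ccl4 and Ccl7, 1 in Ccl2 and 0 in Ccl5 and Cxcl14. The median over the 10 members was 5.61 per kilobase, against 1.35 per kilobase over 19925 genes with a 3' UTR of 100 bases or more. Ccl5 and Cxcl14, the members with no pentamer, are thus unlike the other 8 in this feature.

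RefSeq promoter windows (GRCm38.p6; 250 bases before to 50 after the start) were at hand for 6 members. The NF-kB consensus was searched on both strands and was found in Cxcl1, Cxcl2 and Cxcl10 and not in the windows of Ccl3, Cxcl14 and Tnf; 4.51% of 32851 promoters hold it. The 250 bases before the start are shown for Cxcl1, Cxcl2, Cxcl10 and Cxcl14, with matches in capitals. Cxcl1 and Cxcl2 hold the same stretch, with 1 match on each strand, offset by 1 base. Cxcl10 has 2 matches. Cxcl14 had none in its window and is shown as the member with the largest hepatocyte fold change. Sites outside the windows were not searched, and a link between matches and fold changes was not tested. All sequences are written 5' to 3' on the gene's strand.
Cxcl1, chr5:90890995-90891244, + strand: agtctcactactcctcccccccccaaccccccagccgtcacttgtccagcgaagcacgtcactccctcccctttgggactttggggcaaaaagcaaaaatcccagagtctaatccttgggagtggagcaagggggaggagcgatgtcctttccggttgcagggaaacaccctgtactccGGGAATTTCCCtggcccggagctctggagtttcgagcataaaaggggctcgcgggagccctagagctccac
Cxcl2, chr5:90903649-90903898, + strand: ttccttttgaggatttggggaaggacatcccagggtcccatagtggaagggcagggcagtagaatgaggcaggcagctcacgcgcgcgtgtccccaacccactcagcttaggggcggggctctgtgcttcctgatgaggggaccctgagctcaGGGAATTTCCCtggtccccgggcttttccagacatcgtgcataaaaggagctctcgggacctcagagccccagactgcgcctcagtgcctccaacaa
Cxcl10, chr5:92348890-92349139, - strand: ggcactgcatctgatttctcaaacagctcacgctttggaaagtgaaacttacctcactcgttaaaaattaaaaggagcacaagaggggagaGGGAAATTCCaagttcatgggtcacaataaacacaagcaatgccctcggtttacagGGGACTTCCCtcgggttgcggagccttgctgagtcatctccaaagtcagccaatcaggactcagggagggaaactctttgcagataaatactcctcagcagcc
Cxcl14, chr13:56296552-56296801, - strand: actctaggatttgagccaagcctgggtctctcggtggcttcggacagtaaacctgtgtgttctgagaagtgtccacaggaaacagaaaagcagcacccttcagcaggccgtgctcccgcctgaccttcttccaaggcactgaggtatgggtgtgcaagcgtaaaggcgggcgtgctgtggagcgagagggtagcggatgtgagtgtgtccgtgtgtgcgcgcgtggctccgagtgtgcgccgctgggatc
The match began at -71 in Cxcl1 and -97 in Cxcl2, and at -159 and -103 in Cxcl10. Of the other motifs searched on both strands, the AP-1 motif TGANTCA was in Cxcl10 alone (at -74; 7.81% of promoters), TATAAA was in Tnf alone (at -29; 13.6% of promoters), and the C/EBP motif TTGCNNAA was in none of the 6 (10.8% of promoters). The motifs did not overlap one another apart from the paired matches in Cxcl1 and in Cxcl2.

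Total counts ran from 17044839 to 37211328 per RNA library. A count of 0 therefore allows up to 0.0806 to 0.176 CPM (the count scaled to a common library total), taking 3 counts as the limit; the limit covers counting error only, because without molecular identifiers PCR copies are not counted apart from molecules. A1cf was checked first. It had 7.36, 9.83 and 10.5 CPM in the 3 hepatocyte pools labelled Tg, against 6.46, 10.6 and 11.0 CPM in WT hepatocytes. It had 163, 156, 159 and 174 CPM in the 4 livers labelled Tg, against 279, 217, 216 and 218 CPM in C57BL/6J livers, and fell by 0.65 on the log2 scale (SE 0.11, adjusted p = 0.0369). The libraries labelled Tg thus showed no rise of A1cf counts, and whether transcripts of the transgene were counted at the A1cf gene is not given, so "Tg-labelled" is used throughout. In KO livers A1cf had 24.5, 20.1 and 28.9 CPM, against 237, 203 and 199 CPM in C57BL/6NJ livers (log2 fold change -3.12 ± 0.15 SE, adjusted p = 1.59e-05). Here and throughout, fold changes with their standard errors (SE) come from edgeR's quasi-likelihood test, and p is adjusted by Benjamini-Hochberg over all genes tested in that comparison, with 0.05 as the threshold for a call.

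Libraries stood apart in 2 ways that touch the members. Among hepatocytes, mitochondrially encoded genes took 1.40% and 1.39% of counts in Tg-labelled pools 1 and 2 and 2.01% in WT pool 1, and 3.48% in Tg-labelled pool 3 and 3.71% and 3.14% in WT pools 2 and 3, so that 2 sets of pools run across the labels. Among livers, 14 skeletal muscle genes summed to 2665 CPM in C57BL/6J pool 2, against 7.98 to 12.1 CPM in the other C57BL/6J pools, and to 31.8 to 155 CPM in KO pools, against 6.63 to 7.46 CPM in C57BL/6NJ pools. Albumin was at 30980 to 40283 CPM in Tg-labelled hepatocytes and 32129 to 37470 CPM in WT hepatocytes, so both sets carried the defining hepatocyte transcript. Kupffer cell transcripts were present too, with Clec4f at 7.44 to 10.5 CPM in Tg-labelled and 4.00 to 6.03 CPM in WT hepatocytes. The T cell gene Cd3e had 6 counts in all over the Tg-labelled hepatocyte pools and 0 over the WT pools.

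**Figure D1:**
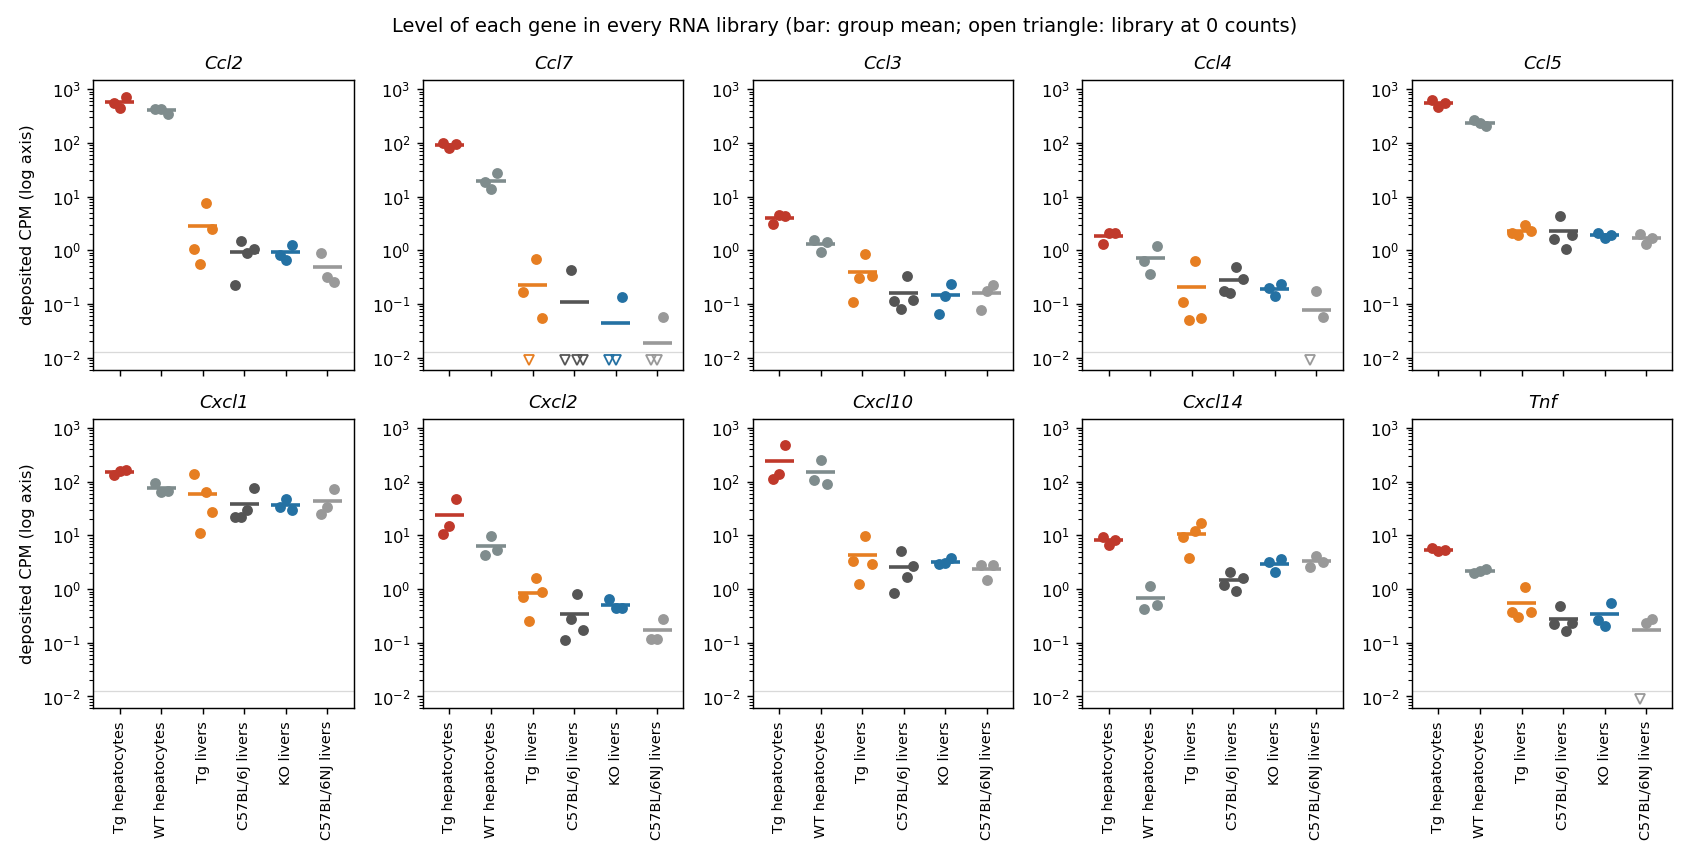
Deposited CPM (log axis) of each of the 10 genes in every RNA library, by group; bars are group means and open triangles are libraries at 0 counts. By group mean, every member but Cxcl14 was lower in each liver group than in either hepatocyte group.

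The members differed widely in level. Per length, in the deposited RPKM (CPM divided by gene length in kilobases), Ccl5 averaged 575 and Ccl2 498 in Tg-labelled hepatocytes, and their ranges overlapped. In WT hepatocytes the order of these was reversed, with Ccl2 at 352 and Ccl5 at 242 RPKM and no overlap. Cxcl10 (162 RPKM in Tg-labelled, 97.9 in WT hepatocytes) and Cxcl1 (159 and 79.7) came next and overlapped each other in both groups, followed by Ccl7 (114 and 24.7) and Cxcl2 (22.9 and 6.03). The other members averaged under 6 RPKM in both groups: Ccl3, Tnf, Ccl4 and Cxcl14, of which Cxcl14 was the lowest in WT hepatocytes (0.377 RPKM) and stood above Tnf and Ccl4 in Tg-labelled hepatocytes (4.43 RPKM). In all 4 liver groups Cxcl1 was the highest member, at 63.0 RPKM in Tg-labelled, 39.6 in C57BL/6J, 39.2 in KO and 45.8 in C57BL/6NJ livers, and its range did not meet that of the next member in any of them. The next member was Cxcl14 in Tg-labelled livers (5.83 RPKM), Ccl5 in C57BL/6J livers (2.33), Cxcl10 in KO livers (2.11) and Cxcl14 in C57BL/6NJ livers (1.84); each of these overlapped the member ranked below it. Ccl7 had the lowest liver level, with 0 counts in 8 of the 14 liver libraries.

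In plated hepatocytes 5 of the 9 chemokines and Tnf rose in the Tg-labelled pools. Of the 10 genes, all of which reached the filter on low counts in every pool of both groups, 6 were called higher (Ccl3, Ccl5, Ccl7, Cxcl1, Cxcl14 and Tnf) and none lower, where 1.53% of the 13770 genes tested were called higher. For 8 members every Tg-labelled pool lay above every WT pool, where 16.5% of genes did so. The members were chosen with earlier results of these data known, so the shares set side by side are descriptions and give no independent support. All 10 estimates were above 0, from 0.54 to 3.59 on the log2 scale, with a median of 1.36, against a median of -0.02 over all genes. DESeq2 called 8 of the 10, adding Ccl4 (adjusted p = 0.0419) and Cxcl2 (adjusted p = 0.00451), and 1816 genes in all, against 434 by edgeR.

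Among the CC chemokines, Ccl7, a monocyte attractant also known as MCP-3, had 99.0, 80.2 and 95.0 CPM in Tg-labelled hepatocytes, against 18.4, 14.0 and 27.0 CPM in WT hepatocytes. It rose 4.78-fold (log2 fold change 2.26 ± 0.26 SE, adjusted p = 0.0148), and the groups lay far apart. Its neighbour Ccl2, the main ligand of Ccr2 on monocytes, was among the most abundant members, with 545, 443 and 712 CPM in Tg-labelled and 435, 426 and 342 CPM in WT hepatocytes. Its lowest Tg-labelled pool lay just above the highest WT pool in CPM and the groups overlapped after TMM scaling; the estimate was 0.54 ± 0.21 (adjusted p = 0.160), short of the threshold. Ccl5, which attracts T cells and monocytes, had 642, 469 and 545 CPM in Tg-labelled and 262, 233 and 203 CPM in WT hepatocytes, and rose 2.45-fold (1.29 ± 0.20, adjusted p = 0.0299). Ccl3 and Ccl4, the macrophage inflammatory proteins, were at far lower counts. Ccl3 had 3.06, 4.47 and 4.44 CPM in Tg-labelled and 1.56, 0.934 and 1.45 CPM in WT hepatocytes and rose 3.10-fold (1.63 ± 0.29, adjusted p = 0.0366). Ccl4 had 1.29, 2.10 and 2.10 CPM, against 0.631, 0.357 and 1.20 CPM (1.36 ± 0.46, adjusted p = 0.123), so the groups did not overlap and the test was not passed.

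Among the CXC chemokines, Cxcl14, a chemokine expressed by epithelia and not of the neutrophil-attracting kind, had the largest change of the 10. It had 9.27, 6.76 and 8.22 CPM in Tg-labelled hepatocytes, against 0.420, 1.13 and 0.512 CPM in WT hepatocytes, and rose 12.1-fold (3.59 ± 0.42, adjusted p = 0.0151); 782 reads stood behind the Tg-labelled pools and 73 behind the WT pools. The neutrophil attractant Cxcl1 had 131, 156 and 166 CPM in Tg-labelled and 96.2, 65.3 and 66.3 CPM in WT hepatocytes, and rose 2.03-fold (1.02 ± 0.19, adjusted p = 0.0453). Cxcl2, its neighbour with the same Cxcr2 receptor, had 10.6, 15.0 and 46.8 CPM, against 4.24, 9.56 and 5.26 CPM in WT hepatocytes (1.95 ± 0.60, adjusted p = 0.108). The groups of Cxcl2 did not overlap, and Tg-labelled pool 3 was 3 times or more the level of either other Tg-labelled pool. Cxcl10, the interferon-inducible ligand of Cxcr3, had 110, 138 and 490 CPM in Tg-labelled and 108, 249 and 89.9 CPM in WT hepatocytes (0.75 ± 0.64, adjusted p = 0.425). Its groups overlapped, and without Tg-labelled pool 3 the estimate turned to -0.17.

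Tnf, the cytokine that activates NF-kB through its receptors, had 5.88, 5.02 and 5.24 CPM in Tg-labelled hepatocytes, against 1.95, 2.14 and 2.39 CPM in WT hepatocytes. Both groups were tight, and Tnf rose 2.57-fold (1.36 ± 0.21, adjusted p = 0.0299).

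**Figure D2:**
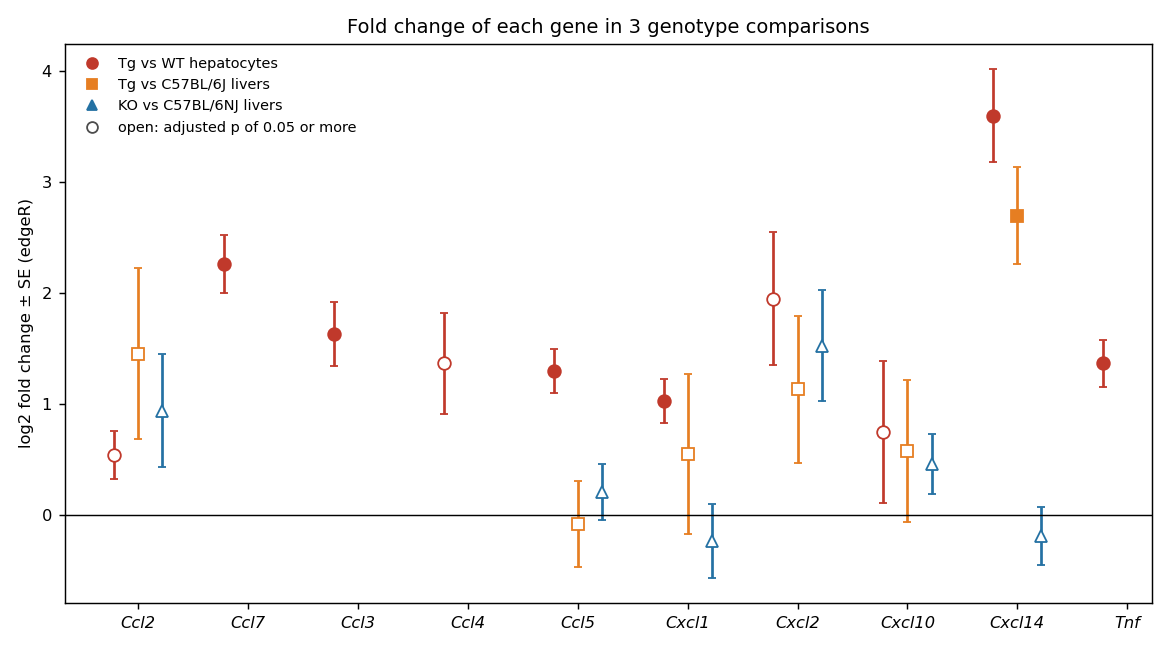
Log2 fold change ± SE (edgeR) of each gene in Tg-labelled against WT hepatocytes, Tg-labelled against C57BL/6J livers, and KO against C57BL/6NJ livers; filled symbols have an adjusted p below 0.05 and missing symbols were below the count filter. In hepatocytes 6 of 10 were called, in Tg-labelled livers only Cxcl14, and in KO livers none.

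The calls depended on single pools. Without Tg-labelled pool 1, Tg-labelled pool 2 or WT pool 3, 0 members were called by edgeR, and 25, 11 and 0 of all genes were called higher in these fits (2329, 2147 and 2402 had an unadjusted p below 0.05). Without WT pool 1, 1 member (Cxcl1) and 28 genes were called higher, and without WT pool 2, 2 members (Ccl7 and Cxcl14) and 59 genes. Without Tg-labelled pool 3, 7 members and 1968 genes were called higher, so the members' count moved with that of all genes. The estimates of the 6 called members stayed between 0.92 and 4.18 over these fits. Within the sets of pools of like mitochondrial share, chosen after seeing the data, 8 members were called higher in each: in pools 1 and 2 labelled Tg against WT pool 1 (all but Ccl2 and Cxcl10; 11.4% of genes called higher), and in Tg-labelled pool 3 against WT pools 2 and 3 (all but Ccl4 and Tnf; 1.90%). In each fit the arm with 1 pool was taken to vary like the other.

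**Figure D3:**
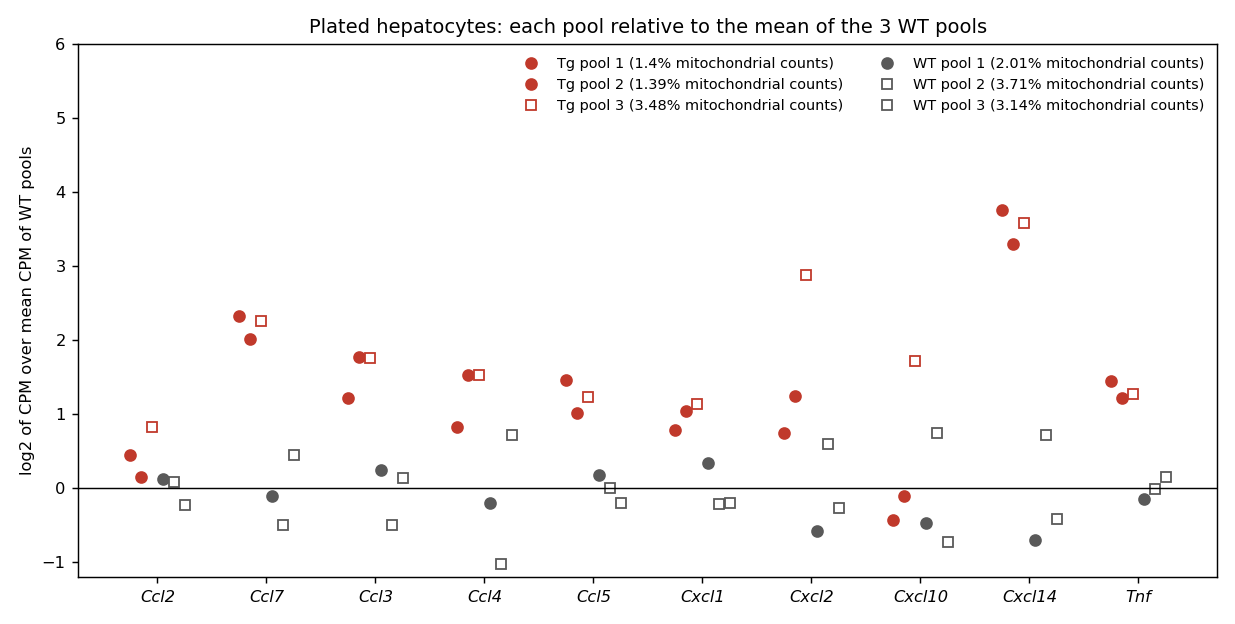
Log2 of each hepatocyte pool's CPM over the mean CPM of the 3 WT pools (vertical axis), for the 10 genes; red symbols are Tg-labelled and grey symbols WT pools, and open squares are the pools with over 3% mitochondrial counts. For Ccl7, Ccl5, Cxcl14 and Tnf the red symbols of both sets lie together above the grey ones, while for Cxcl2 and Cxcl10 Tg-labelled pool 3 stands above the other pools.

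Summed markers of macrophages, B cells, stellate cells, skeletal muscle and adipocytes were higher in the Tg-labelled hepatocytes. The sums of the other cell types overlapped or were lower. The 20 Kupffer cell and macrophage genes summed to 678 to 1020 CPM in Tg-labelled and 507 to 641 CPM in WT hepatocytes; of 19 tested, 2 were called higher (Tyrobp at 1.44 and Ly6c2 at 2.53 on the log2 scale), 18 estimates were above 0, and the median was 0.82. The defining macrophage gene Csf1r was at 5.19 to 11.3 CPM in Tg-labelled and 3.57 to 6.77 CPM in WT hepatocytes. B and plasma cell genes summed to 9.65 to 16.1 CPM in Tg-labelled and 2.25 to 2.82 CPM in WT hepatocytes, with Ighm called higher (3.01). Stellate cell and fibroblast genes summed to 33.1 to 53.5 CPM in Tg-labelled and 22.1 to 29.9 CPM in WT hepatocytes. Of 12 such genes 5 were tested and none was called, 3 estimates were above 0, and the median was 0.24. After TMM scaling Acta2 averaged 26.1 CPM in Tg-labelled and 6.26 CPM in WT hepatocytes. Reln went the other way, at 3.67 and 7.55 CPM, so the higher sum rests largely on Acta2. Skeletal muscle genes summed to 18.2 to 47.4 CPM, against 5.14 to 12.8 CPM in WT hepatocytes. Most of this sum was Acta1, at 16.3 to 45.8 CPM in Tg-labelled and 3.98 to 11.2 CPM in WT hepatocytes. Of the 14 muscle genes 3 were tested and none was called, and Mylpf was lower (-0.47). Adipocyte genes summed to 4.89 to 8.61 CPM, against 1.11 to 1.98 CPM in WT hepatocytes, with Cfd called higher (5.56). Cholangiocyte genes summed to 504 to 732 CPM in Tg-labelled and 739 to 1270 CPM in WT hepatocytes. Most single cholangiocyte genes went the other way from this sum. Of 8 tested, 6 estimates were above 0, the median was 0.92, and Krt23 was called higher (4.07, adjusted p = 0.00848). Endothelial genes summed to 64.2 to 87.6 CPM in Tg-labelled and 67.5 to 80.1 CPM in WT hepatocytes. Neutrophil genes summed to at most 2.41 CPM in any hepatocyte pool. The part of these cells in the members' values was not tested, and in bulk RNA fewer cells of a type and less RNA per cell cannot be told apart.

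Beside the 1.53% of all genes called higher in hepatocytes, other genes of the pathway gave 1 or 2 calls per list, in either direction. Of 27 other chemokines, 16 were tested and 1 was called higher, Ccl9 (0.77, adjusted p = 0.0491), with 13 estimates above 0 and a median of 1.01. Of 22 other cytokines, 12 were tested and 1 was called higher, Ltb, which encodes lymphotoxin beta of the Tnf family (1.88, adjusted p = 0.0160); 11 estimates were above 0 and the median was 0.63. Of 20 chemokine receptors only 6 were tested, and 1 was called lower, Ackr3, a scavenging receptor of Cxcl12 (-2.96, adjusted p = 0.0477; 1.62% of all genes were called lower). Among 20 genes of Tnf receptor signalling, all tested, only the adaptor Traf1 was called (higher, 1.76, adjusted p = 0.0453), and the median was -0.07. Among 20 NF-kB subunits, inhibitors and targets, all tested, 2 were called higher, the lipopolysaccharide co-receptor Cd14 (1.27, adjusted p = 0.0117) and the A20-binding inhibitor Tnip1 (1.22, adjusted p = 0.0304), with 16 estimates above 0 and a median of 0.36. Their summed level was 8207 to 11224 CPM in Tg-labelled and 4456 to 6247 CPM in WT hepatocytes. Of 20 innate sensors and adaptors, Il1rn, the interleukin 1 receptor antagonist, was called higher (1.42, adjusted p = 0.0273), and of 16 factors that act on the decay of cytokine mRNA, Zc3h12a, an endoribonuclease that cleaves cytokine transcripts, was called higher (0.96, adjusted p = 0.0236); the medians were 0.16 and -0.23.

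In Tg-labelled livers Cxcl14 alone of the members was called. Ccl3, Ccl4, Ccl7 and Tnf were below the count filter, and of the 6 tested members 1 was called higher (0.971% of 14110 genes were) and 1 lay above all control pools (6.41% of genes did). Cxcl14 had 9.34, 3.77, 12.0 and 17.4 CPM in Tg-labelled livers, against 1.20, 2.09, 0.938 and 1.64 CPM in C57BL/6J livers. It rose 6.47-fold (2.69 ± 0.44, adjusted p = 0.0319), and its lowest Tg-labelled pool, pool 2, still lay above the highest C57BL/6J pool. The call held without Tg-labelled pool 1 or 2 or C57BL/6J pool 2, and was lost without Tg-labelled pool 3 or 4 or C57BL/6J pool 1, 3 or 4, with adjusted p of 0.00691 to 0.106 over these 8 fits and estimates of 2.37 to 2.97. It also held with Tg-labelled pool 3 and C57BL/6J pool 2 both left out (2.86, adjusted p = 0.0477), a choice made after seeing the data.

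The groups of the other 5 tested members overlapped. Ccl2 had 1.04, 0.553, 7.44 and 2.44 CPM in Tg-labelled livers, against 0.228, 1.50, 0.882 and 1.06 CPM in C57BL/6J livers (1.45 ± 0.77, adjusted p = 0.323). Cxcl1 had 137, 10.8, 64.8 and 27.6 CPM, against 22.3, 21.6, 29.7 and 77.4 CPM in C57BL/6J livers (0.55 ± 0.72, adjusted p = 0.703). The Tg-labelled pools of Cxcl1 thus held both the highest and the lowest liver value of that comparison, and the estimate turned to -0.35 without Tg-labelled pool 1. Cxcl2 had 0.710, 0.251, 1.59 and 0.868 CPM, against 0.114, 0.277, 0.827 and 0.176 CPM (1.13 ± 0.67, adjusted p = 0.374). Cxcl10 had 3.39, 1.26, 9.80 and 2.93 CPM, against 0.855, 5.21, 1.71 and 2.64 CPM (0.58 ± 0.64, adjusted p = 0.647), and the estimate turned to -0.16 without Tg-labelled pool 3. Ccl5 was near level, at 2.08, 1.91, 2.99 and 2.33 CPM in Tg-labelled livers, against 1.60, 4.38, 1.05 and 1.94 CPM in C57BL/6J livers (-0.09 ± 0.39, adjusted p = 0.921), and turned to 0.44 without C57BL/6J pool 2.

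The 4 members below the filter had few reads. Tnf had 7, 6, 23 and 7 reads in Tg-labelled livers (0.301 to 1.11 CPM), against 4, 12, 3 and 4 reads in C57BL/6J livers (0.165 to 0.474 CPM). Ccl3 had 2, 6, 18 and 6 reads, against 2, 2, 6 and 2. Ccl4 had 2, 1, 13 and 1 reads, against 3, 4, 9 and 5, and Ccl7 had 3, 0, 14 and 1 reads, against 0, 11, 0 and 0. In each of these the highest Tg-labelled pool was pool 3, and the groups overlapped.

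Tg-labelled pool 3 was the highest of its group for 8 of the 10 members and pool 2 the lowest for 9, and C57BL/6J pool 2 was the highest of its group for 6. Immune cell markers also differed between these pools. The 20 Kupffer cell and macrophage genes summed to 941, 989, 1287 and 793 CPM in Tg-labelled livers, against 472, 850, 527 and 468 CPM in C57BL/6J livers, so Tg-labelled pool 3 and C57BL/6J pool 2 were highest in their groups, and Tg-labelled pool 2 was second highest in its own. B and plasma cell genes summed to 136, 52.9, 255 and 99.3 CPM in Tg-labelled livers, against 30.9, 90.9, 23.0 and 38.0 CPM in C57BL/6J livers, with Tg-labelled pool 3 and C57BL/6J pool 2 highest and Tg-labelled pool 2 lowest in its group. Neutrophil genes summed to 8.99 to 32.0 CPM, highest in pool 4, against 4.40 to 8.89 CPM. Their part in the members' values was not tested.

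**Figure D4:**
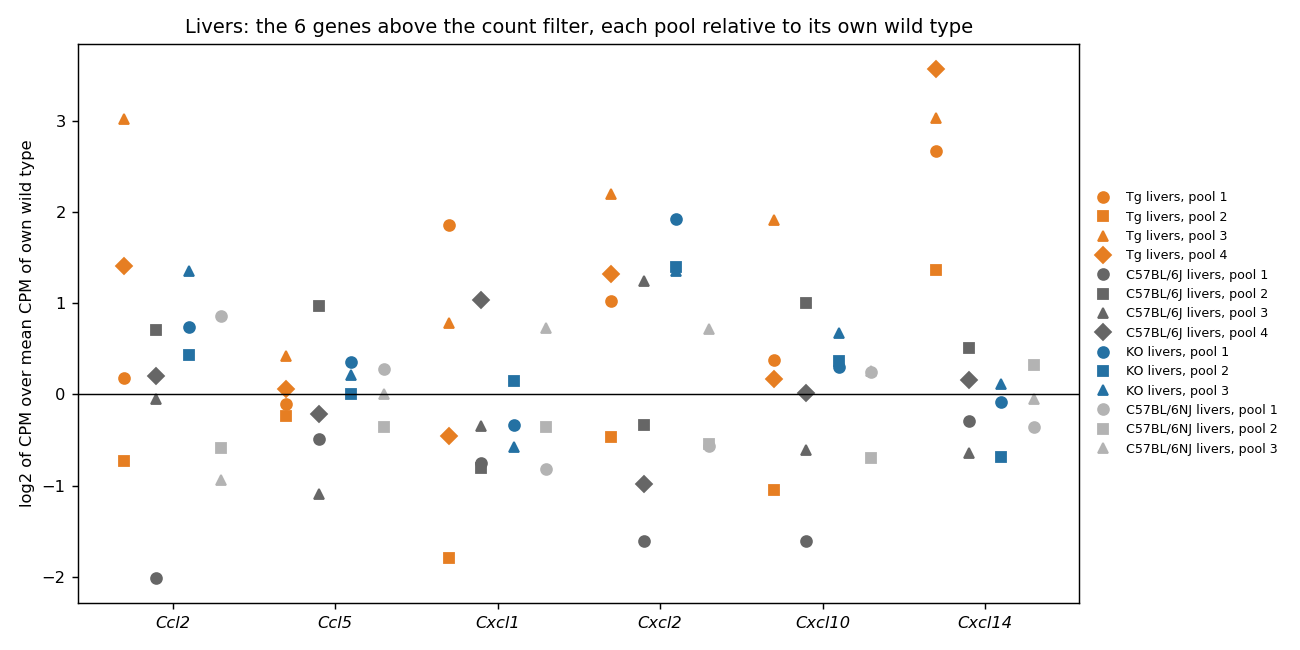
Log2 of each liver pool's CPM over the mean CPM of its own wild-type pools (vertical axis), for the 6 genes above the count filter; orange is Tg-labelled and dark grey C57BL/6J, blue is KO and light grey C57BL/6NJ, and symbols give the pool number. The 4 orange symbols of Cxcl14 lie above all dark grey ones, and for the other genes the symbols of both genotypes are mixed, apart from KO above C57BL/6NJ for Cxcl2 and Cxcl10.

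Among the fixed lists in Tg-labelled livers, none of the 13 other chemokines tested was called; those with the smallest p were Cx3cl1, the ligand of Cx3cr1 (1.53, adjusted p = 0.0604), and Ccl25 (0.96, adjusted p = 0.0781). The Cx3cl1 receptor Cx3cr1, a marker of monocytes and some macrophages, was called higher (2.16, adjusted p = 0.0243), the 1 call among 16 chemokine receptors tested. None of 10 other cytokines, 20 Tnf receptor signalling genes, 20 NF-kB genes or 16 mRNA decay factors was called. In these lists the smallest p belonged to Il1b (1.05, adjusted p = 0.162), Traf3 (0.63, adjusted p = 0.0653), Vcam1 (1.01, adjusted p = 0.0667) and Cnot8 (0.31, adjusted p = 0.142). The interleukin 1 receptor Il1r1 was called higher (1.44, adjusted p = 0.0356), 1 of 20 innate sensors. Among 20 macrophage genes Mpeg1 was called higher (1.15, adjusted p = 0.0339) and Cd163 lower (-1.58, adjusted p = 0.0370; 0.361% of all genes were called lower), 18 estimates were above 0, and the median was 0.68. Of 5 T and NK cell genes tested, Cd4 was called higher (1.99, adjusted p = 0.0188), 3 estimates were above 0, and the median was 0.46. The defining T cell gene Cd3e overlapped, at 0.710 to 1.09 CPM in Tg-labelled and 0.399 to 1.90 CPM in C57BL/6J livers. Of 12 stellate cell and fibroblast genes Pdgfrb (0.86) and Lum (1.74) were called higher.

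In KO livers none of the 6 tested members was called by edgeR or by DESeq2, where edgeR called 2.98% of 15942 genes; 1 member had an unadjusted p below 0.05. That member was Cxcl2, with 0.654, 0.452 and 0.440 CPM in KO livers, against 0.116, 0.118 and 0.283 CPM in C57BL/6NJ livers (1.52 ± 0.50, unadjusted p = 0.0127, adjusted p = 0.145). Its groups did not overlap, nor did those of Cxcl10, with 2.88, 3.03 and 3.72 CPM in KO livers, against 2.78, 1.45 and 2.80 CPM in C57BL/6NJ livers (0.46 ± 0.27, adjusted p = 0.408). KO pools lay above all C57BL/6NJ pools for these 2 of 6 members, where 11.6% of genes did so. Cxcl2 rests on 46 reads in KO and 17 in C57BL/6NJ livers, and reached the level of the count filter (0.332 CPM) in 3 of 3 KO pools and 0 of 3 C57BL/6NJ pools. It was therefore tested only through the group where it was higher, and its lack of overlap supports nothing.

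Cxcl14, the member called in Tg-labelled livers, had 3.17, 2.09 and 3.62 CPM in KO livers, against 2.63, 4.19 and 3.25 CPM in C57BL/6NJ livers (-0.19 ± 0.26, adjusted p = 0.751), with wide overlap. Ccl2 had 0.817, 0.661 and 1.25 CPM, against 0.888, 0.324 and 0.255 CPM (0.94 ± 0.51, adjusted p = 0.364). Ccl5 had 2.12, 1.67 and 1.93 CPM, against 2.01, 1.30 and 1.67 CPM (0.20 ± 0.25, adjusted p = 0.716). The groups of Ccl2 and Ccl5 overlapped. Cxcl1 had 34.5, 48.2 and 29.3 CPM, against 24.7, 34.1 and 72.1 CPM (-0.24 ± 0.33, adjusted p = 0.754), and C57BL/6NJ pool 3 was the highest of the 6. Below the filter, KO and C57BL/6NJ livers held 30 and 18 reads of Tnf in all, 13 and 16 of Ccl3, 17 and 8 of Ccl4, and 4 and 2 of Ccl7.

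Few genes of the surrounding lists were called in KO livers either. None of 14 other chemokines, 10 other cytokines, 15 chemokine receptors, 20 Tnf receptor signalling genes, 20 innate sensors or 16 mRNA decay factors was called. The smallest p in these lists belonged to Cxcl12 (0.43, adjusted p = 0.0677), Csf1 (0.44, adjusted p = 0.141), Cxcr5 (-0.95, adjusted p = 0.273), Chuk (-0.27, adjusted p = 0.108), Irak4 (-0.34, adjusted p = 0.0870) and Dhx36 (-0.35, adjusted p = 0.0794). Nfkbiz, an inducible nuclear NF-kB cofactor, was called higher (0.66, adjusted p = 0.0104), 1 of 20 NF-kB genes. Cps1 was called lower (-0.66, adjusted p = 0.0193), 1 of 15 hepatocyte genes. None of 20 macrophage genes was called (summed level 603 to 698 CPM in KO and 592 to 794 CPM in C57BL/6NJ livers), while 11 of 12 tested muscle genes and the adipocyte genes Cfd and Cidea were called higher and the immunoglobulin light chain gene Igkc lower (-1.59, adjusted p = 0.0492).

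The differences between effects were tested directly. The change in Tg-labelled livers minus that in Tg-labelled hepatocytes was called for 0 of 10 members by edgeR (0.842% of 15565 genes were), with 1 at an unadjusted p below 0.05; DESeq2 was not run on this contrast. That member was Ccl5, at -1.59 ± 0.46 (unadjusted p = 0.00403, adjusted p = 0.0957), which had risen in hepatocytes and was near level in livers. The contrast for Cxcl14, higher in both, was -1.10 ± 0.62 (adjusted p = 0.290), which did not pass the test. Ccl3, Ccl4, Ccl7 and Tnf were below the count filter in the liver comparison. They entered the contrast of livers with hepatocytes through the hepatocytes, and their liver change rests on few reads. Hepatocytes and livers also differ in the age of the mice and in the plating, which cannot be told apart from the tissue. In liver, the change in Tg-labelled mice minus that in KO mice was called for 1 of the 7 members tested, Cxcl14, at 2.87 ± 0.57 (adjusted p = 0.0357; 1.02% of 16295 genes were called). That call held in 4 of 14 fits without 1 pool, with adjusted p of 0.00504 to 0.113 and estimates of 2.54 to 3.15. The pools whose absence kept it were Tg-labelled pools 1 and 2, C57BL/6J pool 2 and C57BL/6NJ pool 1. The Tg-labelled and KO livers also have different wild types, C57BL/6J and C57BL/6NJ, and strain cannot be told apart from genotype in this contrast. Tnf, 1 of the 7 members, was below the count filter in each of the liver comparisons.

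WT hepatocytes set against C57BL/6J livers gave the largest differences. Of the 10 members 7 were called higher in WT hepatocytes and Cxcl14 lower, where 35.6% of 14824 genes were called higher and 36.4% lower, so most of the transcriptome differed as well. Ccl3, Ccl7, Cxcl2 and Tnf, 4 of the 7, reached the level of the count filter (0.395 CPM) in 3 of 3 hepatocyte pools and in at most 1 of 4 liver pools, so they were tested only through the group where they were higher. Ccl2 averaged 401 ± 51.5 CPM (SD, n = 3) in WT hepatocytes and 0.917 ± 0.528 CPM (SD, n = 4) in C57BL/6J livers, a log2 fold change of 8.37 ± 0.42 (adjusted p = 3.05e-07). It ranked as the 19th of all genes by fold change. Ccl5 averaged 233 ± 29.5 CPM and 2.24 ± 1.48 CPM (6.31 ± 0.41, adjusted p = 1.16e-06), and Cxcl10 149 ± 87.2 CPM and 2.61 ± 1.89 CPM (5.43 ± 0.56, adjusted p = 1.86e-05). Ccl7 had 2072 reads in WT hepatocytes and 11 in C57BL/6J livers, all of these in pool 2 (6.80 ± 0.72, adjusted p = 2.34e-05). Without that pool the livers were at 0 counts and the fitted value moved to 11.9, which depends on the prior count and is no bound. Cxcl2 (3.78 ± 0.56), Ccl3 (2.67 ± 0.52) and Tnf (2.54 ± 0.37) were higher with smaller changes. Cxcl1 (0.64 ± 0.44, adjusted p = 0.216) and Ccl4 (1.01 ± 0.57, adjusted p = 0.137) were not called.

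Cxcl14 was the exception, at 0.686 ± 0.384 CPM (SD, n = 3) in WT hepatocytes and 1.47 ± 0.509 CPM (SD, n = 4) in C57BL/6J livers (-1.47 ± 0.43, adjusted p = 0.0121). In the NF-kB list 18 of 20 genes were higher and none lower (median 2.01), among them the early response gene Ier3 (5.75), Nfkb2 (3.33) and the feedback inhibitor Tnfaip3 (3.26). The other chemokines were split, with 6 of 15 tested higher and 7 lower, and all 15 hepatocyte genes and 16 of 20 macrophage genes were lower in WT hepatocytes. The sets differ in cell content, as isolated hepatocytes and whole tissue, and in the age of the mice, in perfusion and in plating. These cannot be told apart.

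The CLIP libraries held almost no read of the members. Over the 10 libraries, with 6151 to 10902 counts each and 80854 in all, the 10 genes had 1 count together, of Cxcl14 in 1 library. A count of 0 over all libraries allows up to 0.00371% of counts, taking 3 counts as the limit and for counting error only. In the RNA of Tg-labelled hepatocytes Ccl2 took 0.0567% and Ccl5 0.0552% of counts, Cxcl10 0.0246%, Cxcl1 0.0151% and Ccl7 0.00914%, so these 5 were recovered in CLIP at a lower share than in RNA. The other members took less than that limit in RNA on average (Cxcl2 took 0.00468% in its highest pool), and their CLIP share cannot be set against it at this depth. Precipitates without the antibody or without A1CF were not analysed here, so the values are levels and no measure of binding.

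The genes whose levels followed the members most closely within groups were sought over all 20 RNA libraries. Values were log2 of TMM-scaled CPM + 0.5, centred on each group's mean. The profile was the mean of the 8 members that averaged at least 1 TMM-scaled CPM over the libraries. In all, 13200 genes were compared with it. The 5 highest Pearson correlations belonged to Cyp1b1 (0.875), Snhg17 (0.856), Igtp (0.849), Pkd2 (0.840) and Tiam2 (0.839). Libraries share depth and pool composition in these points, so the values are descriptions. The profile ran highest in Tg-labelled liver pool 3 (0.75) and lowest in Tg-labelled liver pool 2 (-0.86).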

How the data were processed

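RNA of plated hepatocytes and livers and A1CF CLIP RNA were sequenced. Per the submitters' processing notes, the authors used bcl2fastq, STAR 2.0.4b with GRCm38 and featureCounts 1.45 of Subread; annotation release, strand setting and treatment of multi-mapping reads are not given in the sources used here. The deposited tables hold raw counts per gene, CPM (the deposited count over the library total, recomputed within 5.1e-11) and, for RNA-seq, RPKM (the deposited CPM per kilobase, within 9.8e-11). Names matched 40254 of 41388 IDs, and all 10 members.

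Genes with few counts were dropped by filterByExpr (min.count of 10, min.total.count of 15); TMM scaling and two-sided quasi-likelihood F-tests came from edgeR 4.0.16, run under R 4.3.3, with Benjamini-Hochberg adjustment over all genes tested and a threshold of 0.05. Each comparison used its own groups; effects were compared as contrasts of 4 groups. Alternatives were DESeq2 1.42.0, its size factors, no filter, all RNA groups in 1 fit, leaving out pools and a replicate block. The members and lists were chosen with earlier results of these data known. Besides the members and A1cf, the text names at most 3 called genes of a list, or those with the smallest p where none was called; genes named beyond this (Csf1r, Clec4f, Cd3e) are defining markers.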

Additional observations from a re-analysis of the deposited data

Results flagged for a closer look

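In 5 of 20 sets of 4 liver pools, 1 pool stood farther from the rest than Dixon's 95% limit allows. The limit assumes independent, normally distributed values. These sets come from the same pools and several are at few reads, so the count cannot be set against a rate of 1 in 20 and is a description. Tg-labelled pool 3 was high for Tnf (1.11 CPM, ratio 0.900) and Ccl4 (0.628 CPM, ratio 0.898). Among C57BL/6J livers, pool 3 was high for Ccl3 (0.331 CPM, ratio 0.848), pool 2 for Ccl7 (0.434 CPM, ratio 1, the others at 0 counts) and pool 4 for Cxcl1 (77.4 CPM, ratio 0.854). The first 4 of these values rest on 6 to 23 reads. The change of Cxcl14 in liver was called different between Tg-labelled and KO mice, by 2.87 on the log2 scale (adjusted p = 0.0357, edgeR). This call held in 4 of 14 fits without 1 pool and was lost with the replicate block. The wild types of these groups differ in strain, with Cxcl14 at 1.468 CPM in C57BL/6J and 3.355 CPM in C57BL/6NJ livers on average. Strain cannot be told apart from genotype here.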

How the results depend on the processing

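Of the 10 members, 6 were called in hepatocytes and 1 in Tg-labelled livers. Leaving out 1 pool at a time gave 0 to 7 called members in hepatocytes, 0 to 1 in Tg-labelled livers, and 0 to 1 in each difference between effects. Genes called in hepatocytes numbered 434, and 0 to 4934 when 1 pool was left out, 1816 by DESeq2, 669 with no filter, 4323 with all RNA groups in 1 fit (where the median log2 fold change of all genes moved to 0.13) and 4119 in the 3 pools of lower mitochondrial share. In Tg-labelled livers they numbered 188, 27 to 561 without 1 pool, 1287 by DESeq2 and 991 with all groups. In KO livers they numbered 475, 137 to 645 without 1 pool, 845 by DESeq2, 1079 with no filter and 42 with all groups. For the difference between Tg-labelled livers and hepatocytes in their changes they numbered 131, 5 to 3545 without 1 pool, 86 with no filter and 889 with all groups, where 1 member was called. For the difference between Tg-labelled and KO livers they numbered 167, and 24 to 449 without 1 pool.

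The labels do not pair pools, and deviations of equal-numbered pools correlated at -0.508 to 0.696. With a replicate block, 1 member and 21 genes were called in hepatocytes, 0 and 44 in Tg-labelled livers, 21 genes for livers against hepatocytes, and 0 members and 66 genes for Tg-labelled against KO livers.

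Signs of some uncalled estimates turned when 1 pool was left out. In hepatocytes Cxcl10 ran from -0.17 (without Tg-labelled pool 3) to 1.37. In Tg-labelled livers Ccl5 ran from -0.31 to 0.44 (without C57BL/6J pool 2), Cxcl1 from -0.35 (without Tg-labelled pool 1) to 1.17 and Cxcl10 from -0.16 (without Tg-labelled pool 3) to 1.13. Ccl5 was 0.078 with the replicate block, and 0.33 without C57BL/6J pool 2 and Tg-labelled pool 3, an alternative chosen after seeing the data. In KO livers Cxcl1 ran from -0.51 to 0.32 (without C57BL/6NJ pool 3) and Cxcl14 from -0.38 to 0.014 (without KO pool 2). The difference between Tg-labelled and KO livers for Ccl5 ran from -0.51 to 0.22 (without C57BL/6J pool 2). The cause was not tested.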
